A study of Danio rerio with 6 samples.

Results

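The 14-3-3 proteins are encoded by the ywha genes, and the list followed here holds 10 zebrafish genes of this family, ywhaba, ywhabb, ywhae1, ywhae2, ywhag1, ywhag2, ywhah, ywhaqa, ywhaqb and ywhaz. They were chosen by name, as RefSeq transcripts that a RefSeq gene table pairs with one of these symbols, and the rule used no measured value. The list itself was drawn up with earlier results of these data known. Of the 10 genes, 9 had a row in the deposited count tables, each with 1 transcript, among 15455 transcripts in all. No row paired with ywhag2, which was not analysed here. RNA came from hnrnpul1/1l mutants (labelled DKO, double homozygous mutants) and from wild types (labelled WT), with 3 libraries of each genotype, and each library was a pool of 8 embryos at 72 hpf that had been raised in E3 medium and had their tails removed. The mutants carry the CRISPR insertion alleles that the study uses by default, hnrnpul1 ca54 and hnrnpul1l ca52. The study describes both as frameshift alleles, and it reports that mutants skip the hnrnpul1l exon that holds the insertion. The study's Results describe the mutants as maternal zygotic for hnrnpul1l and zygotic for hnrnpul1, and the wild types as embryos from an incross of hnrnpul1l heterozygotes, while its Methods call the wild types siblings. By the account in the Results, mutants and wild types had different parents, and parentage and genotype then cannot be told apart in these libraries.

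14-3-3 proteins are small acidic proteins that work as dimers and bind short motifs in other proteins once a serine or threonine in them is phosphorylated. By binding they hold a partner in the cytoplasm, block or stabilise its activity, or bridge it to another protein. Known partners include the Cdc25 phosphatases after DNA damage, the Raf kinases, the death protein Bad, the FoxO factors and the Hippo effector Yap. The family is expressed very widely and is among the most abundant in brain, and the isoforms are named by Greek letters that the gene symbols carry (b for beta, e for epsilon, g for gamma, h for eta, q for theta and z for zeta). Several of the zebrafish genes come in pairs that share a letter, such as ywhaqa and ywhaqb.

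The mutant libraries held 40891309 to 62580215 estimated counts and the wild-type libraries 52250779 to 61266049. Spearman correlations over all transcripts were 0.920 to 0.966, and libraries did not sort by genotype alone. Mutant replicate 2 correlated best with wild-type replicate 1 (0.953), and mutant replicate 3 with wild-type replicate 3 (0.966). Mutant replicate 2 also had the smallest total and the lowest TMM scaling factor, 0.913. Results that rest on it are therefore given with and without it. As a check of the labels, hnrnpul1 was at 47.7, 45.7 and 22.1 CPM in the mutant pools, against 127, 122 and 118 CPM in the wild-type pools. CPM, the count scaled to the TMM-adjusted library total, is comparable between libraries for 1 gene, but not between genes, since it is not scaled for transcript length. The markers listed for neurons, radial glia and progenitors, photoreceptors, skeletal muscle, epidermis, erythrocytes and lens were all present, and no marker with a row was at 0 in any library. The replicates were separate pools of embryos by the study's methods.

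None of the 9 transcripts was called as different between hnrnpul1/1l mutants and wild types in edgeR's quasi-likelihood test with Benjamini-Hochberg adjustment over 13553 transcripts. The count of members called was 0, where 0.0% of all transcripts were called, so it does not show that the members are unchanged. At an unadjusted p below 0.05 it was also 0 of 9, where 8.79% of all transcripts passed. DESeq2 called 0 of the 9, where it called 1.36% of 14377 transcripts, and limma-voom called 0 of the 9, where it called 0.0%. The smallest adjusted p of a member from edgeR was 0.728, for ywhaba. The median log2 fold change of the 9 was -0.31, against -0.01 over all transcripts tested, and 7 of the 9 had a lower fitted level in mutants, where 50.9% of all transcripts did. Every member except ywhae2 had between 4364 and 117518 counts in each library. With RNA from head and trunk together, fewer cells of a type and less RNA per cell cannot be told apart.

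**Figure D1:**
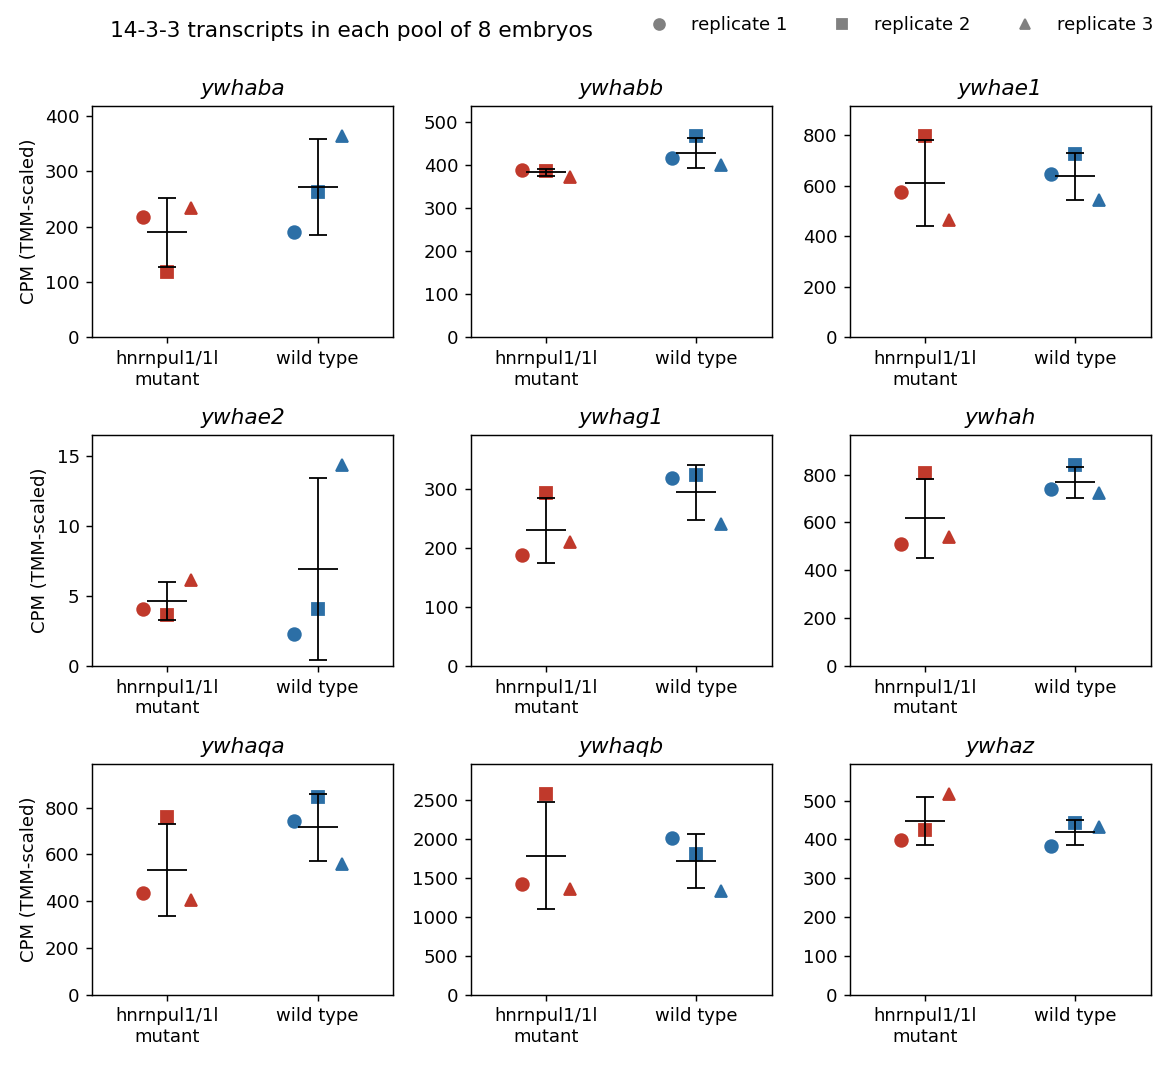
CPM (vertical axes, starting at 0) of the 9 transcripts in the 3 mutant pools (red, left) and the 3 wild-type pools (blue, right), with symbols for replicate number, and the mean with SD in black. The groups overlap for every transcript except ywhabb, and mutant replicate 2 (square) is the highest mutant pool for ywhae1, ywhag1, ywhah, ywhaqa and ywhaqb.

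The theta isoform, known in mammals from brain and T cells, is encoded by ywhaqa and ywhaqb. The ywhaqa transcript (NM_201513) was at 432, 759 and 405 CPM in mutants, against 741, 844 and 559.5 CPM in wild types. Mutant replicates 1 and 3 lay below all wild types, and mutant replicate 2 lay within their range. The means were 532 ± 197 CPM in mutants and 715 ± 144 CPM in wild types (SD, n = 3 each). The log2 fold change from edgeR was -0.43, with a standard error of 0.30 and a 95% interval of -1.11 to 0.26 (adjusted p = 0.752 from edgeR). The ywhaqb transcript (NM_201484) was at 1413, 2574 and 1354 CPM in mutants, against 2009.5, 1809 and 1332.5 CPM in wild types. The highest of all 6 values was mutant replicate 2 and the lowest wild-type replicate 3, and the genotypes overlapped. Its log2 fold change was 0.05 with a standard error of 0.30, and it turned to -0.27 without mutant replicate 2 and to -0.10 without wild-type replicate 3, while it was 0.21 without mutant replicate 1 or without mutant replicate 3.

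The balance between the theta paralogues was separated between the genotypes, unlike either level. Within each library the ratio of ywhaqa to ywhaqb counts was 0.306, 0.295 and 0.299 in mutants, against 0.369, 0.466 and 0.42 in wild types. All 3 mutant ratios lay below all wild-type ratios, and the mutants were nearly equal to one another. The mean log2 ratio was lower in mutants by 0.47 log2 units (difference -0.47), with SDs of 0.03 in mutants and 0.17 in wild types. An exact two-sided permutation test gave p = 0.1, the smallest value that 3 pools against 3 allow, and 0.3 after adjustment over the 3 paralogue pairs measured, so the difference does not pass a threshold of 0.05. A ratio within a library does not depend on the scaling between libraries. Leaving out single libraries kept it between -0.56 and -0.39, and mutant replicate 2, which moved both levels, left it at -0.46. The estimated counts were whole numbers for ywhaqa in all libraries, while those for ywhaqb were not whole in 3 libraries.

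**Figure D2:**
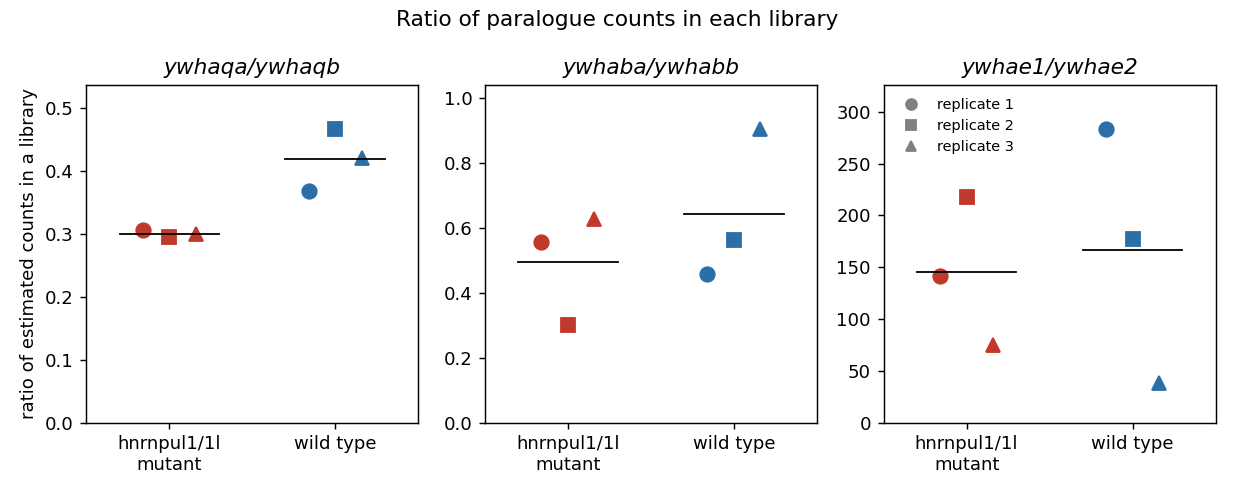
Ratio of the estimated counts of paralogues within a library (vertical axes, starting at 0) in mutant pools (red, left) and wild-type pools (blue, right), with a bar at the mean. The ywhaqa to ywhaqb ratios are 0.295 to 0.306 in mutants and 0.369 to 0.466 in wild types, while the ratios of the other pairs overlap between the genotypes.

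The gamma and eta genes gave the most alike profiles in the family. In humans, YWHAG is a gene of early-onset epilepsy, and 14-3-3 proteins were first studied in brain as activators of the enzymes that make serotonin and catecholamines. The ywhag1 transcript (NM_213022) was at 188, 293 and 211 CPM in mutants, against 319, 323 and 241 CPM in wild types. Mutant replicates 1 and 3 were the lowest of the 6 libraries, and mutant replicate 2 lay above wild-type replicate 3. The log2 fold change was -0.35 with a standard error of 0.24 and a 95% interval of -0.90 to 0.20 (adjusted p = 0.739 from edgeR). The ywhah transcript (NM_213164) was at 508, 808 and 538 CPM in mutants, against 739, 839 and 722 CPM in wild types. Again mutant replicate 2 lay within the range of the wild types and the other mutants below it. The log2 fold change was -0.31 with a standard error of 0.23 and a 95% interval of -0.85 to 0.22 (adjusted p = 0.772 from edgeR).

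For ywhaqa, ywhag1 and ywhah, whether an unadjusted p below 0.05 was reached turned on mutant replicate 2. Without that library, 3 of the 9 members passed an unadjusted p below 0.05 in edgeR, all 3 lower in mutants, where 6.47% of 13887 transcripts passed in that direction. Their log2 fold changes without it were -0.73 for ywhaqa, -0.52 for ywhag1 and -0.52 for ywhah, and their adjusted p-values from edgeR were 0.282, 0.371 and 0.331. None was called over all transcripts, where 0.0% were called in that fit. With any other library left out, no member passed an unadjusted p below 0.05. Omitting another mutant pool made the differences smaller. Without mutant replicate 1 the log2 fold changes were -0.28 for ywhaqa, -0.20 for ywhag1 and -0.17 for ywhah, and without mutant replicate 3 they were -0.27, -0.30 and -0.23 for the same genes.

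The epsilon isoform, whose human gene YWHAE lies in the region deleted in Miller-Dieker lissencephaly, has the copies ywhae1 and ywhae2. The ywhae1 transcript (NM_212605) was at 573, 795 and 462 CPM in mutants, against 644, 725 and 541 CPM in wild types. Both the highest and the lowest values were in mutants, and the log2 fold change of -0.06 was well within its standard error of 0.25. The direction turned when mutant replicate 3 (0.10) or wild-type replicate 2 (0.04) was left out, and the value was -0.27 without mutant replicate 2. The ywhae2 transcript (NM_001013341) was at 4.05, 3.65 and 6.14 CPM in mutants, against 2.27, 4.09 and 14.3 CPM in wild types. Wild-type replicate 3 stood far above the other 5 libraries, and it alone set the direction. The log2 fold change was -0.58 with a standard error of 0.69, and it was 0.54 without wild-type replicate 3 and -0.998 without wild-type replicate 1. This was also the only member with few counts, 133 to 959 in a library. The ratio of ywhae1 to ywhae2 counts ran from 75.3 to 218 in mutants and from 37.8 to 283 in wild types. The exact two-sided permutation p of this ratio was 1.0, and the difference of 0.10 between the mean log2 ratios, which has the opposite sign to that between the plain mean ratios, turned to -0.76 without wild-type replicate 3 and to -0.26 without mutant replicate 2, and was 0.69 without wild-type replicate 1.

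The beta isoform, a regulator of Raf kinases, is encoded by ywhaba and ywhabb. The ywhaba transcript (NM_001082798) was at 217, 117 and 234 CPM in mutants, against 190.0, 263 and 363 CPM in wild types. Mutant replicate 2 was the lowest library and wild-type replicate 3 the highest, and the genotypes overlapped. The means were 189 ± 63.2 CPM in mutants and 272 ± 86.9 CPM in wild types (SD, n = 3 each). Its fitted log2 fold change was -0.52, with a standard error of 0.33 and a 95% interval of -1.30 to 0.25. It was -0.24 without mutant replicate 2 and -0.26 without wild-type replicate 3. The ywhabb transcript (NM_213145) was at 389, 387 and 372 CPM in mutants, against 415, 466 and 401 CPM in wild types. It was the only member whose groups did not overlap, with all mutants below all wild types, as were 9.08% of all transcripts tested. The difference was a log2 fold change of -0.16 with a standard error of 0.17 and an adjusted p of 0.882 from edgeR, and an exact two-sided permutation test gave p = 0.1, the smallest possible. The log2 fold change of ywhabb was -0.094 without wild-type replicate 2 and -0.28 with scaling by total counts, which lowered the median of all transcripts to -0.13. By an unadjusted equal-variance test of log2 values scaled by total counts, ywhabb was the only member to pass the 0.05 level, where 8.61% of all transcripts passed as lower in mutants. The ratio of ywhaba to ywhabb counts overlapped between the genotypes, at 0.559, 0.303 and 0.629 in mutants and 0.458, 0.564 and 0.906 in wild types (exact two-sided permutation p = 0.5). The difference of -0.38 log2 units was -0.06 without mutant replicate 2, -0.10 without wild-type replicate 3, -0.59 without wild-type replicate 1 and -0.58 without mutant replicate 3.

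The zeta gene ywhaz, whose product is known in mammals to bind Raf kinases and regulators of apoptosis, had overlapping groups. It was at 399, 425 and 517 CPM in mutants, against 382, 443 and 431 CPM in wild types. Mutant replicate 3 was the highest library, and the others lay close together. The means of NM_212757 were 447 ± 62.4 CPM in mutants and 419 ± 32.2 CPM in wild types (SD, n = 3 each). edgeR fitted a log2 fold change of 0.10 with a standard error of 0.19, and its 95% interval was -0.35 to 0.54. It turned to -0.029 without mutant replicate 3 and was 0.20 without mutant replicate 1.

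**Figure D3:**
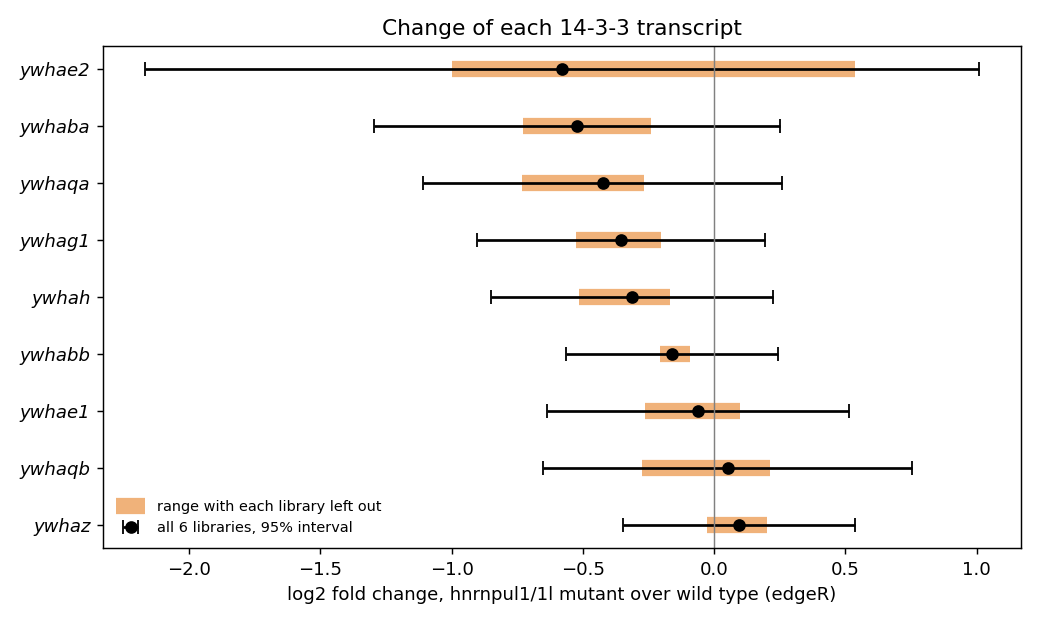
log2 fold change of mutants over wild types from edgeR for each of the 9 transcripts, with its 95% interval (black) and the range of values over the 6 fits that each omit 1 library (orange). All 9 intervals include 0, and the range of the left-out fits crosses 0 for ywhae1, ywhae2, ywhaqb and ywhaz.

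Summed over the 9 members, 14-3-3 transcripts made up 4121, 6161 and 4101 CPM in mutants, against 5442, 5717 and 4605 CPM in wild types. The highest sum was in mutant replicate 2 and the lowest in the other mutants. The means were 4794 ± 1184 CPM in mutants and 5255 ± 579 CPM in wild types (SD, n = 3 each), a difference of -0.15 log2 units (exact two-sided permutation p = 0.6). The difference was -0.35 without mutant replicate 2 and -0.25 without wild-type replicate 3, and it shrank to -0.058 without mutant replicate 1, -0.054 without mutant replicate 3 and -0.090 without wild-type replicate 2. Without ywhaqb, the member with the most counts, the sum differed by -0.24 log2 units (exact two-sided permutation p = 0.3). A further 14-3-3 gene in the tables, the beta-like ywhabl, is outside the list, and it was at 1113, 1174 and 989.6 CPM in mutants, against 1159, 1239.5 and 1009 CPM in wild types. Adding it left the sum at a difference of -0.13 log2 units.

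Across libraries the members fell into profiles that crossed the genotypes. For ywhae1, ywhag1, ywhah, ywhaqa and ywhaqb, mutant replicate 2 and wild-type replicates 1 and 2 lay above the mean of the 6 libraries, and mutant replicates 1 and 3 lay below it. Measured as the root mean square difference of mean-centred log2 CPM over the 6 libraries, the closest members were ywhag1 and ywhah (0.11), then ywhag1 and ywhaqa (0.15). The transcripts ywhaba and ywhae2 differed from these, with mutant replicate 2 at -0.90 and -0.39 log2 units from their own means and wild-type replicate 3 at 0.73 and 1.57. The mean deviation over all transcripts tested was likewise lowest in mutant replicate 2 (-0.28) and highest in wild-type replicate 3 (0.20). This trait is therefore not particular to ywhaba and ywhae2. These profiles were grouped after their values were seen, over 6 libraries that differ in depth and scaling factor. Within a library all members share the same depth and factor. The profiles carry no test. By the same measure, the transcripts of other genes most like ywhaba were hspa5, which encodes the chaperone BiP of the endoplasmic reticulum (0.07), gcc1, which encodes a coiled-coil protein of the Golgi (0.07), and crsp7, which encodes a Mediator subunit (0.09). As for ywhaba, the lowest library of each of these was mutant replicate 2 and the highest wild-type replicate 3. They were picked for their likeness to ywhaba, so this sharing follows from the choice and is no separate result. For example, hspa5 was at 209.8, 108 and 217 CPM in mutants, against 203, 252 and 357 CPM in wild types.

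The neuron markers moved with the first of these profiles. Of the 25 genes on that list, 20 had a row, none of them was at 0 in any library, and their summed level was 6791, 11644 and 5864 CPM in mutants, against 9088, 10866 and 7407.5 CPM in wild types. Mutant replicate 2 was the highest library and mutant replicates 1 and 3 the lowest. The sums ranged from 5864 to 11644 CPM in mutants and from 7407.5 to 10866 CPM in wild types, a difference of -0.22 log2 units (exact two-sided permutation p = 0.6). Set against the summed neuron markers of the same library, ywhaqa was at 0.0637, 0.0652 and 0.0691 in mutants, against 0.0815, 0.0777 and 0.0755 in wild types. All 3 mutants lay below all wild types, by 0.25 log2 units (difference -0.25, exact two-sided permutation p = 0.1, the smallest possible). No other member was separated by genotype on this scale, and 3 pools against 3 separate by chance in 10% of groupings. The share of all transcripts separated on this scale is not given here. The p was not adjusted over the members. On this scale ywhag1 differed by -0.15 and ywhah by -0.12 log2 units, with overlapping genotypes, and ywhaqb was higher in mutants by 0.23 log2 units, also with overlap (exact two-sided permutation p = 0.3). The comparison with neuron markers was added after the data were seen.

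**Figure D4:**
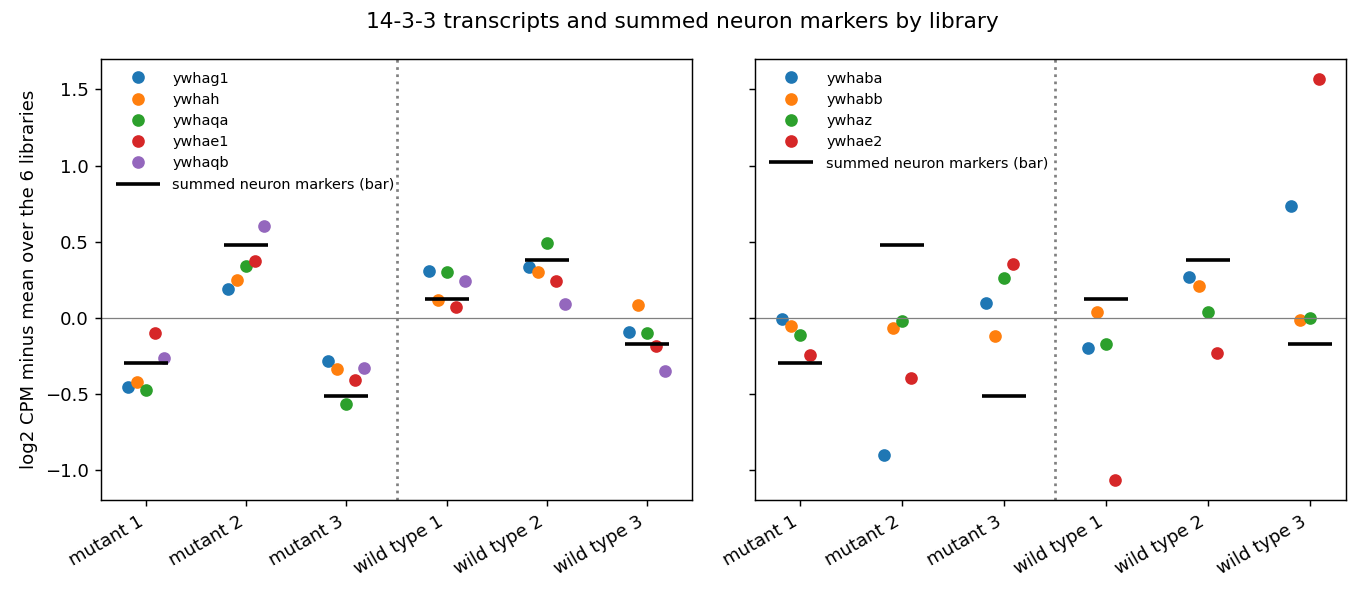
log2 CPM of each 14-3-3 transcript minus its mean over the 6 libraries (vertical axis), by library, with the summed neuron markers as black bars. The 5 transcripts on the left follow the neuron markers, high in mutant replicate 2 and low in mutant replicates 1 and 3, and ywhaba and ywhae2 on the right are high in wild-type replicate 3.

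The other marker lists are given as counts at an unadjusted p below 0.05 in edgeR, beside 4.18% of all transcripts higher and 4.61% lower in mutants by that rule. Of 20 photoreceptor genes 11 were lower and 0 higher, with a median log2 fold change of -1.45. Of 10 epidermis genes 6 were higher and 0 lower (median 1.41), of 7 erythrocyte genes 3 were higher and 0 lower (median 0.80), and of 18 skeletal muscle genes 3 were higher and 0 lower (median 0.29). Of 20 neuron genes 1 was higher and 2 lower (median -0.40), of 10 radial glia and progenitor genes 2 were higher and 0 lower (median 0.14), and of 10 lens genes none passed (median 0.26). None of these genes was called after adjustment over all transcripts. The marker lists were drawn up with earlier results of these data known. Some markers, such as gnat2, arr3a, cyt1l and hbbe1.1, are on a list that the study drew from these libraries. The marker counts are therefore not independent evidence. The part of the marker genes in the 14-3-3 values was not tested, and the ratios to neuron markers above do not test it for neurons.

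Genes whose products 14-3-3 proteins bind, or that act with them, were followed on 6 lists with 90 genes, of which 62 were tested. None was called by edgeR after adjustment. At an unadjusted p below 0.05, 2 were higher and 1 lower in mutants, or 3 of 62 where 8.79% of all transcripts passed, and their median log2 fold change was -0.15. The count of 3 was 5 without mutant replicate 2, 6 without mutant replicate 3 and 0 without wild-type replicate 2. The share of all transcripts passing in either direction in these fits is not given here. The changes in the count therefore cannot be read as particular to partner genes. By separation of the groups, 8 of the 62 lay entirely lower and 3 entirely higher in mutants. The shares of all transcripts tested were 9.08% and 7.71%.

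Among 16 genes of the G2/M checkpoint, where 14-3-3 proteins hold Cdc25 away from the nucleus, 10 had a higher and 6 a lower fitted level in mutants, with a median of 0.28. Those past the unadjusted p were ccnb1 and ccnb2, which encode B-type cyclins. Both are also on a list that the study drew from these libraries, so their direction is not independent evidence. ccnb2 was at 10.6, 16.8 and 12.7 CPM in mutants, against 8.53, 7.39 and 7.96 CPM in wild types, and ccnb1 had a log2 fold change of 0.71 with a standard error of 0.24. All mutants lay above all wild types for both, as did 7.71% of all transcripts tested, with adjusted p-values from edgeR of 0.559 for ccnb2 and 0.474 for ccnb1. Neither cdc25b nor cdc25d, the phosphatase genes, was near the threshold, with log2 fold changes of 0.28 and 0.41 and standard errors of 0.34 and 1.21.

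The 6 cell death genes tested had a median log2 fold change of -0.52, with 4 lower and 2 higher. The gene past the unadjusted p was bbc3, which encodes the death protein Puma, at 5.56, 7.10 and 6.65 CPM in mutants and 15.4, 15.2 and 9.20 CPM in wild types. It is on the same list of the study as ccnb1 and ccnb2, so its direction is not independent evidence either. All 3 mutants lay below all wild types, as for 9.08% of all transcripts tested. The log2 fold change of bbc3 was -1.04 with a standard error of 0.34 (adjusted p = 0.474 from edgeR). The remaining lists had no gene at an unadjusted p below 0.05, and the gene nearest to it is named for each.

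Among 12 genes of Raf and Akt signalling (median -0.20) this was pdpk1b, for the kinase that activates Akt, at 33.4, 27.9 and 39.8 CPM in mutants, against 40.3, 51.5 and 55.3 CPM in wild types, a log2 fold change of -0.54 with a standard error of 0.24. The mutants lay below the wild types, as for 9.08% of all transcripts tested, the closest values being 39.8 and 40.3 CPM. Among 11 tested genes of a nuclear shuttling list, which also holds Hippo pathway kinases (median -0.54), it was the FoxO gene foxo3a. That gene was at 137, 269 and 176 CPM in mutants, against 245, 299 and 261 CPM in wild types. For foxo3a mutant replicate 2 lay within the range of the wild types, as it did for ywhah and ywhaqa. Of the 13 genes with a row on that list, 5 were at 0 in at least 1 library. Among 10 polarity and cytoskeleton genes (median -0.08) it was cfl1l, a cofilin-like gene of actin turnover, at 159, 133 and 345 CPM in mutants, against 69.2, 57.7 and 166 CPM in wild types, with mutant replicates 1 and 2 below wild-type replicate 3. Among 7 genes of amine synthesis (median -0.13) it was th, which encodes tyrosine hydroxylase, at 3.59, 5.33 and 4.74 CPM in mutants, against 3.08, 0.750 and 4.62 CPM in wild types, and its groups overlapped.

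**Figure D5:**
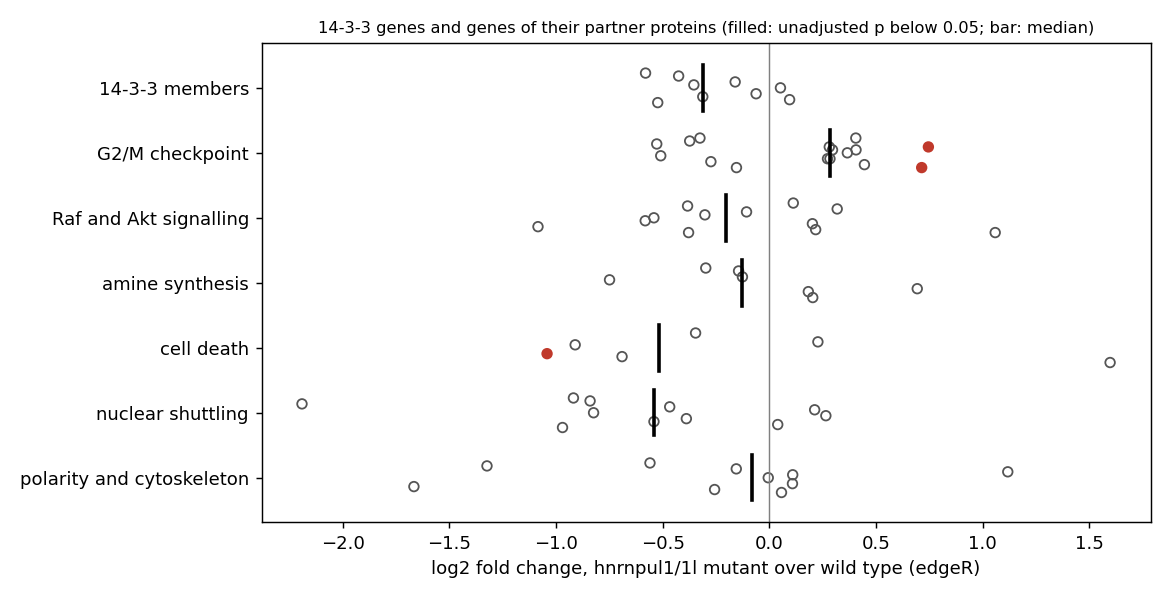
log2 fold change of mutants over wild types from edgeR for the 9 14-3-3 transcripts and for the tested genes of the 6 partner lists, 1 circle a gene, filled red at an unadjusted p below 0.05, with a bar at the median. The filled points are ccnb1 and ccnb2 in the G2/M list and bbc3 in the cell death list, and no 14-3-3 gene is filled.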

How the data were processed

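Polyadenylated RNA from 3 pools of hnrnpul1/1l mutants and 3 pools of wild types was sequenced paired-end from strand-specific libraries. The authors deposited estimated counts per RefSeq transcript, not scaled for depth or length. The submitters' processing notes name kallisto 0.42.4, bcl2fastq 2.20.0.422 and danRer10 with no role for each, and the RefSeq release is not given in the sources used here. Between 15.7% and 18.2% of the expected counts in a deposited table were not whole (tolerance 1e-06), and all were rounded.

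A table of RefSeq genes (assembly GRCz12tu) served for symbols only and paired 14740 of 15455 transcripts. The 9 members with a row were fitted with all transcripts in edgeR 4.0.16 (R 4.3.3) with its default low-count filter, TMM scaling and the quasi-likelihood test, with no covariate. The standard error is the log2 fold change divided by the square root of F. Single values were compared by exact permutation over the 20 groupings of the libraries. The design assumed counts, and the test was kept for estimated counts. The test was also run on simulated whole counts, which do not check its use on estimated counts.

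The members and the gene lists were chosen with earlier results of these data known. The text names all members, hnrnpul1, and on each partner list the genes at an unadjusted p below 0.05 or otherwise that with the smallest p. For the member with the smallest p it also names the 3 genes most alike across libraries. The genes ywhabl, cdc25b and cdc25d were added after their values were seen. Where a listed gene had several transcripts, that with the most counts stood for it. Alternatives were DESeq2 1.42.0, limma-voom (limma 3.58.1), RLE size factors, library totals without TMM, no filter, a filter at a mean of 5 CPM, fits on per-gene sums, replicate number as a blocking term, omission of single libraries, and an unadjusted equal-variance test of log2 total-scaled CPM plus 1.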

Additional observations from a re-analysis of the deposited data

How the results depend on the processing

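No member was called by DESeq2, limma-voom or any other filter, scaling or omission of a library, and ywhaba, ywhag1, ywhah and ywhaqa stayed lower in mutants in all of these, as did ywhabb. Scaling by total counts moved the median of all transcripts to -0.13, and ywhaqb (-0.078) and ywhaz (-0.021) then lay below 0 but above that median, while the summed members differed by -0.28 log2 units. When single libraries were omitted, the log2 fold change ran from -0.27 to 0.21 for ywhaqb, from -0.029 to 0.20 for ywhaz, from -0.27 to 0.10 for ywhae1 and from -0.998 to 0.54 for ywhae2. Members at an unadjusted p below 0.05 numbered 0 to 3 with libraries left out, and 1 (ywhabb) by the equal-variance test of total-scaled values, where 8.61% of transcripts passed as lower. Partner genes at that level numbered 5 under total counts, 5 with counts summed per gene and 0 to 6 with libraries left out, against 3. Without the share of all transcripts in these fits, which is not given here, these counts are no result about partner genes. The ywhae1 to ywhae2 ratio differed by -0.76 to 0.69 log2 units with libraries left out. Relative to the summed neuron markers, an alternative chosen after seeing the data, ywhabb (0.062), ywhae1 (0.13) and ywhae2 (0.034) turned to higher in mutants. The cause of these turns was not tested.

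Same-numbered mutant and wild-type libraries deviated together with correlations of -0.09, 0.13 and 0.38, the last being the highest of any mutant and wild-type pair. With 3 pools a group, such correlations cannot decide whether the numbers pair the pools. Mutant replicate 2 correlated best with wild-type replicate 1 (0.23). With the replicate block in edgeR, 0 members were called and 0 passed an unadjusted p below 0.05. In that fit 4 partner genes passed it, and the share of all transcripts passing there is not given here. With libraries paired by number, the ywhaqa to ywhaqb difference kept its value of -0.47 (exact sign-flip p = 0.25, the smallest that 3 pairs allow). The member with the fewest counts was ywhae2, at 133 to 959 in a library.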
